A study of Mus musculus with 4 samples.

Results

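The serotonin system was examined in white adipose tissue of mice on a high fat diet through 10 genes: the tryptophan hydroxylases Tph1 and Tph2, the decarboxylase Ddc, the vesicle transporters Slc18a1 and Slc18a2, the reuptake transporter Slc6a4, the monoamine oxidases Maoa and Maob, and the receptors Htr2a and Htr2b. Their probes were taken by the gene name printed in the scanner files, which gave 10 of 27617 named genes and 15 of 41174 probes. Tph2 was chosen by its log2 difference between the diets, the largest among 17736 tested genes, and the other 9 genes because they handle serotonin. The difference between the diets is therefore given as a description for all 10 genes. Where they are counted among the calls of a fit over all genes, that count is a description too and supports nothing. The tissue came from female C57BL/6 mice, an inbred laboratory strain, in which the high fat diet (HFD; High fat diet 32) induced obesity, and the comparison group ate a low fat diet (LFD; CE2). Diets started at 8 weeks of age and ran for 18 weeks. Each sample mixed adipose tissue of 3 mice, and each diet had 2 samples, HFD replicates 1 and 2 and LFD replicates 1 and 2. The fat depot is not given in the sources used here, and neither is whether replicate samples held different mice, so the spread between them may be technical, and the small number of arrays limits the precision.

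Serotonin is made from tryptophan in 2 steps. Tryptophan hydroxylase, the rate-limiting enzyme, uses tetrahydrobiopterin as its cofactor, and Ddc then removes a carboxyl group. Tph1 is the form best known from enterochromaffin cells of the gut, the pineal gland and mast cells, while Tph2 is best known from neurons of the brainstem raphe. Vesicle transporters load serotonin into secretory granules, Slc6a4 carries it back into cells, and monoamine oxidases degrade it. In fat of mice, serotonin made through Tph1 is known to act on adipocytes through receptors such as Htr2a, Htr3a and Htr2b, where it favours fat storage and lowers heat production.

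The readout of each hydroxylase rests on short DNA probes of 60 bases, and Tph2 had only 1. A stretch of 30 bases of each hydroxylase probe is shown 5′ to 3′, as the scanner files give it, because the result for Tph2 rests on this spot and because Tph1 is its closest relative. The Tph2 probe lies at chr10:114516101-114516160 and those of Tph1 at chr7:53902606-53902665 (probe a) and chr7:53912586-53912645 (probe b), all on the reverse strand of build mm9 as the files give it. Whether they lie in coding or untranslated exons was not analysed here. The comparisons below set probes against probes and not against whole transcripts. Binding of the Tph2 probe to other transcripts, Tph1 among them, was therefore not tested. The longest run that the Tph2 probe shares with either Tph1 probe on the same strand is 5 bases. In the stretches shown, capitals mark every such run that also occurs in the other gene's full probes, and neighbouring runs overlap or join.
Tph2 probe, bases 1 to 30: GAAAAGTTTTGataaacaggatatataggt
Tph1 probe a, bases 12 to 41: ctcactctctcTGAAAAtgcacacctggaa
Tph1 probe b, bases 21 to 50: tcgtagaagacgAAAGTaTTTTGcagagtt
Searched on both strands against the other 41173 probes, the Tph2 probe shared at most 14 bases with any of them. Neither of the probes with such a run, for Tmem229a and for an unnamed transcript, was a tested probe that stands for its gene. Their levels are not given here.

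RNA was read on 1-colour arrays, where the brightness of a spot stands for a transcript level, and a value is given either as the scanner's processed signal, in brightness units after background subtraction, or as log2 of that signal over the 75th percentile of its array. Feature Extraction marks a spot as well above background or not, and this mark is called detected here. Detected probes numbered 27251 and 21312 on HFD replicates 1 and 2, against 26420 and 27937 on LFD replicates 1 and 2. HFD replicate 2 stood apart in its floor: the lowest detected signal was 86.1 there, against 42.6 on HFD replicate 1, and 33.8 and 36.8 on LFD replicates 1 and 2. The mean net brightness of negative control spots was 97.0 and 109.5 on the HFD arrays, against 63.5 and 85.9 on the LFD arrays. A dim signal could therefore be detected on 3 arrays and not on HFD replicate 2, and this touches Ddc, Slc6a4, Slc18a2, Htr2a and Htr2b below. Adipocyte markers, which check the tissue label, were detected on every array in 8 of 8 genes, among them Adipoq and Plin1.

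Tph2 was a bright spot in both HFD samples and was not marked above background in either LFD sample. Its raw mean brightness was 6589 and 4530 on HFD replicates 1 and 2, against 79.9 and 106.3 on LFD replicates 1 and 2. The raw brightness of the 153 negative control spots averaged 73.9 and 95.6 on LFD replicates 1 and 2, with a highest spot of 96.4 and 111.8, so the Tph2 readings in LFD lay within their range. After background subtraction the processed signal was 5784 and 4067 in HFD, against 6.85 and 7.55 in LFD. The LFD values are surrogates, which the scanner software writes where a spot is not above background, so they have no meaning beyond a floor. The pixels of the HFD spots had a standard deviation of 329 and 268, and none of the 4 spots was saturated or marked as an outlier. On the log2 scale Tph2 stood at 2.57 ± 0.27 in HFD and -6.87 ± 0.07 in LFD (SD, n = 2 each). Measured against the lowest detected signal of each LFD array, the difference was at least 141-fold. With a background correction that keeps dim spots above zero (normexp with an offset of 50), Tph2 was 2.78 and 2.31 in HFD, against -3.30 and -3.18 in LFD, a log2 difference of 5.79, which is smaller than that bound, so the bound holds only for this background handling. The diets did not overlap with either handling. Detection on both HFD arrays and on neither LFD array held for 16 of 17736 tested genes or 0.0902%, and detection on both LFD arrays and on neither HFD array for 410 or 2.31%. The floor of HFD replicate 2 was higher, as given above, and nothing is read from these shares for a gene chosen by this contrast. In mixed tissue, more cells that carry a transcript and more transcript per cell cannot be told apart.

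**Figure D1:**
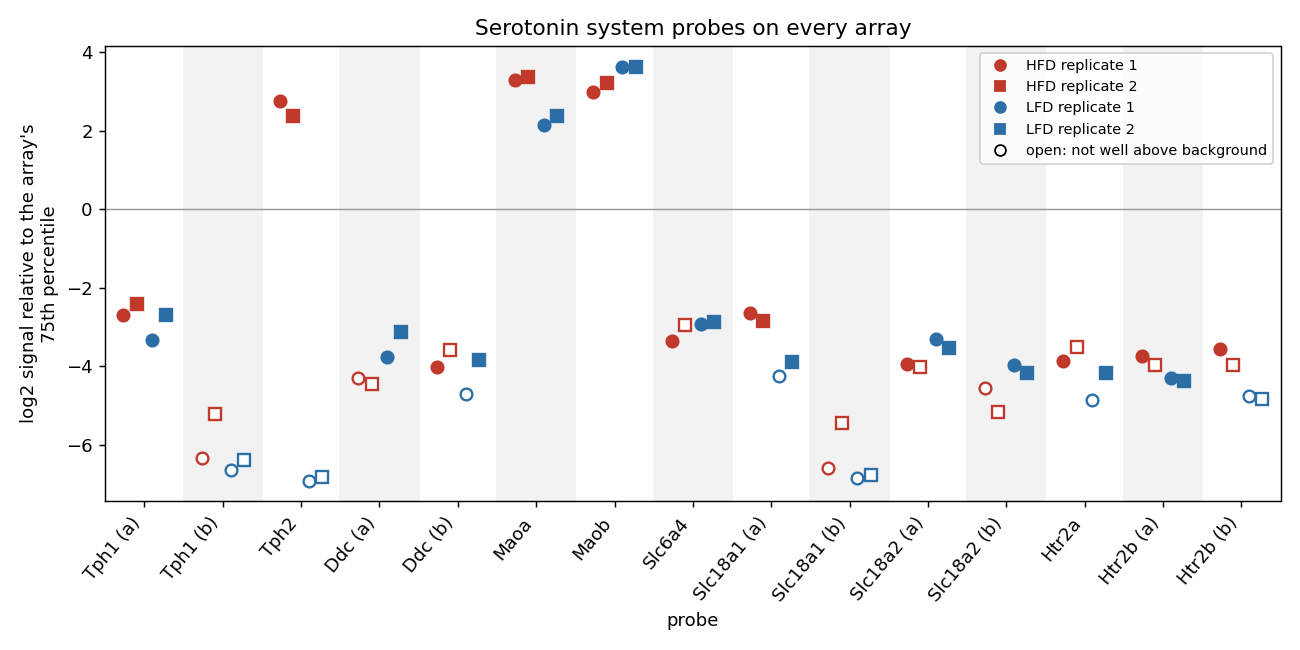
Log2 signal over the 75th percentile of its array (vertical axis) of the 15 probes (horizontal axis) on each array, HFD in red and LFD in blue, circles for replicate 1 and squares for replicate 2; open symbols were not well above background. For genes with a pair of probes, (a) is the one that represents the gene. Tph2 lies at 2.75 and 2.38 in HFD, against -6.92 and -6.82 in LFD, and no other probe has a gap of that size.

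Tph1, the peripheral form of the enzyme, was detected on all 4 arrays through probe a. Its processed signal was 132.6 and 146.0 in HFD, against 82.0 and 132.5 in LFD. LFD replicate 2 equalled HFD replicate 1 almost exactly, and only LFD replicate 1 was low. The log2 difference was 0.46, with SDs of 0.19 in HFD and 0.46 in LFD, so it lay within the spread of the LFD samples. Without LFD replicate 1 it was 0.13, and without LFD replicate 2 it was 0.78. Probe b was not detected on any array and gives no level.

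Ddc, the second enzyme of the pathway, had 2 probes that went opposite ways. Probe a, at chr11:11715320-11715379, read 43.0 and 35.4 in HFD, against 60.4 and 97.5 in LFD, and was detected on the LFD arrays only. The raw brightness behind these values, 152 and 172 in HFD against 139 and 199 in LFD, overlapped between the diets. Raw negative control spots were brighter on the HFD arrays, so this overlap does not show like levels. Against the detection limit of the HFD arrays, probe a was at least 1.23-fold lower in HFD, but with normexp the log2 difference was -0.12. Probe b, at chr11:11776262-11776321, read 52.8 and 65.4 in HFD, against 31.9 and 59.5 in LFD, with 1 detected array in each diet. Both probes were thus at the edge of detection.

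Among the vesicle transporters, Slc18a1, the form best known from endocrine cells, was higher in HFD. Its probe a, at chr8:71562051-71562110, read 136.3 and 108.4 in HFD, both detected, against 43.4 and 57.4 in LFD, of which only replicate 2 was detected. The raw brightness was 224 and 216 in HFD, against 105 and 140 in LFD. These values gave a log2 difference of 1.32, a 2.50-fold higher level, with SDs of 0.14 in HFD and 0.26 in LFD. The difference was 0.75 with normexp. Its probe b, at chr8:71594467-71594526, was a surrogate value on every array.

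Slc18a2, the form of neurons, mast cells and platelets, read lower in HFD with processed signals and equal with raw ones. Probe a, at chr19:59370102-59370161, had a processed signal of 55.4 and 48.5 in HFD, against 84.0 and 73.4 in LFD, and was not detected on HFD replicate 2. Its raw brightness was 166 and 181 in HFD, against 163 and 173 in LFD. Raw negative control spots averaged 106.3 and 116.0 on the HFD arrays, against 73.9 and 95.6 on the LFD arrays. Like raw readings therefore do not show like levels. The log2 difference was -0.56 with the processed signal and -0.02 with normexp. Probe b, at chr19:59369846-59369906, had differences of -0.79 and -0.03 with the same pair of methods. The size of the difference for Slc18a2 therefore depended on the background handling.

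Slc6a4, which takes serotonin back up and is the target of common antidepressants, lies at chr11:76845560-76845619 and read 83.5 and 100.4 in HFD, against 108.5 and 117.0 in LFD. HFD replicate 2 was marked as not detected although its signal exceeded that of HFD replicate 1. The log2 difference was -0.26, within the SD of 0.28 between the HFD samples, and -0.02 with normexp.

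**Figure D2:**
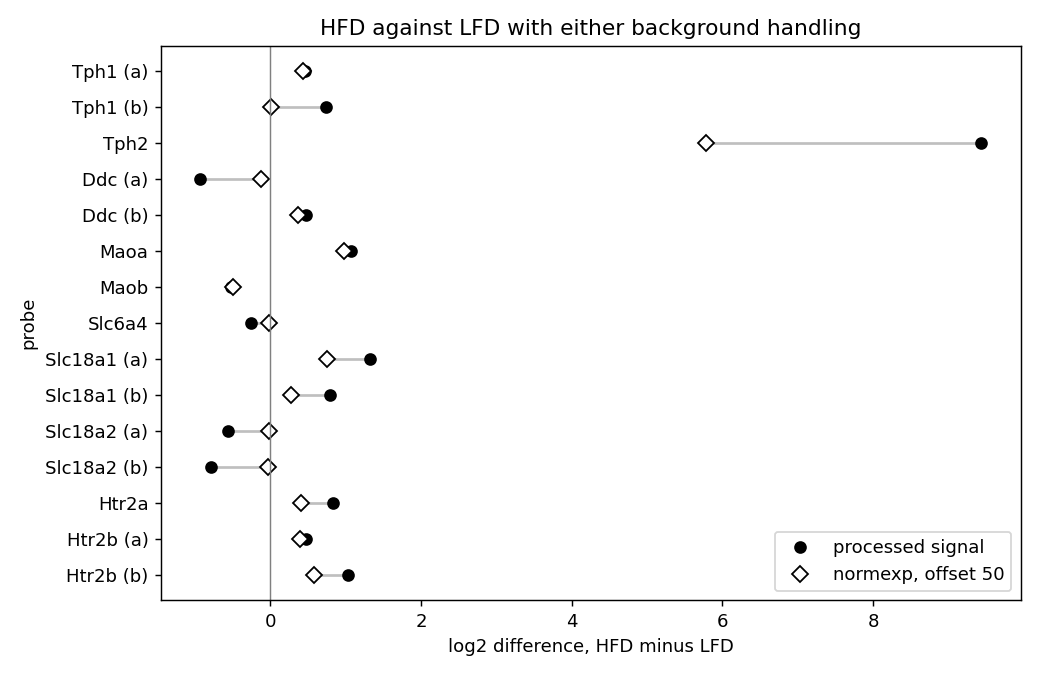
Log2 difference between HFD and LFD (horizontal axis) for each of the 15 probes (vertical axis), from the processed signal (filled circles) and from normexp (open diamonds), means of 2 arrays per diet. Maoa, Maob and Tph1 probe a barely move between the methods, whereas Slc18a2 and Ddc probe a approach 0 with normexp and Tph2 shrinks to 5.79.

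The monoamine oxidases were detected on all 4 arrays and went opposite ways. Maoa, which prefers serotonin and noradrenaline, lies at chrX:16262643-16262702 and had a processed signal of 8429 and 8047 in HFD, against 3672 and 4450 in LFD. Both HFD samples were above both LFD samples, by 2.10-fold (log2 difference 1.07, SDs of 0.05 in HFD and 0.17 in LFD). Maob, which prefers phenylethylamine, lies next to it at chrX:16286427-16286486 and had 6825 and 7276 in HFD, against 10211 and 10552 in LFD. Both HFD samples were below both LFD samples, by 1.43-fold (log2 difference -0.52, SDs of 0.16 in HFD and 0.01 in LFD). For these bright spots the background handling mattered little, with normexp differences of 0.98 for Maoa and -0.49 for Maob.

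The receptors Htr2a and Htr2b were at the edge of detection. Htr2a, whose probe coordinates, chr14:75044950-75105415, span 60466 bases, read 58.8 and 68.8 in HFD, against 28.5 and 47.4 in LFD. It was detected on HFD replicate 1 and LFD replicate 2 only, did not pass the filter and gave a log2 difference of 0.83 (0.41 with normexp). Htr2b, a receptor known to act in adipocytes, read 63.4 and 50.04 in HFD, against 42.3 and 41.3 in LFD, with its probe a at chr1:88007112-88007171. Its probe b, at chr1:87996242-87996301, read 72.0 and 49.9 in HFD, against 30.3 and 29.9 in LFD. Both Htr2b probes and the Htr2a probe were higher in both HFD samples than in both LFD samples, as were 36.2% of all tested genes. The log2 differences were 0.47 for Htr2b probe a and 1.03 for probe b (0.39 and 0.58 with normexp). HFD replicate 2 was not detected for any of these 3 probes. Negative control spots were also brighter on the HFD arrays, as given above, and their part in these differences was not tested.

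Of the 10 genes, 9 passed the filter, which asked for detection on both arrays of at least 1 diet; Htr2a did not. In limma, fitted over all 26054 tested probes with Benjamini-Hochberg adjustment, 3 of the 9 were past the threshold of 0.05 as higher in HFD (Tph2, Maoa and Slc18a1), where 5.75% of all 17736 tested genes were. None of the 9 was past it as lower, where 5.61% of all genes were. The diets did not overlap for 8 of the 9 genes, against 68.9% of all tested genes: 4 were higher in HFD (36.2% of all genes) and 4 lower (32.7% of all genes). Tph2 ranked 1 of 17736 by its log2 difference, the value for which it was chosen, while Slc18a1 ranked 389 and Maoa 622. Nothing is read from these counts, since the contrast chose the genes, and Tph2 and Slc18a1 passed the filter only through HFD. Ddc, Slc6a4, Slc18a2 and Htr2b passed it only through LFD, the diet in which the first 3 of these read higher. Without HFD replicate 1, without HFD replicate 2 or without LFD replicate 1, Maoa and Slc18a1 were no longer past the threshold, while with any 1 array left out the log2 difference lay between 0.95 and 1.19 for Maoa and between 1.14 and 1.51 for Slc18a1. Maob was past it as lower with normexp, quantile normalisation, median scaling, detection required on all 4 arrays, and limma's trend and robust options, and Ddc with quantile normalisation only.

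**Figure D3:**
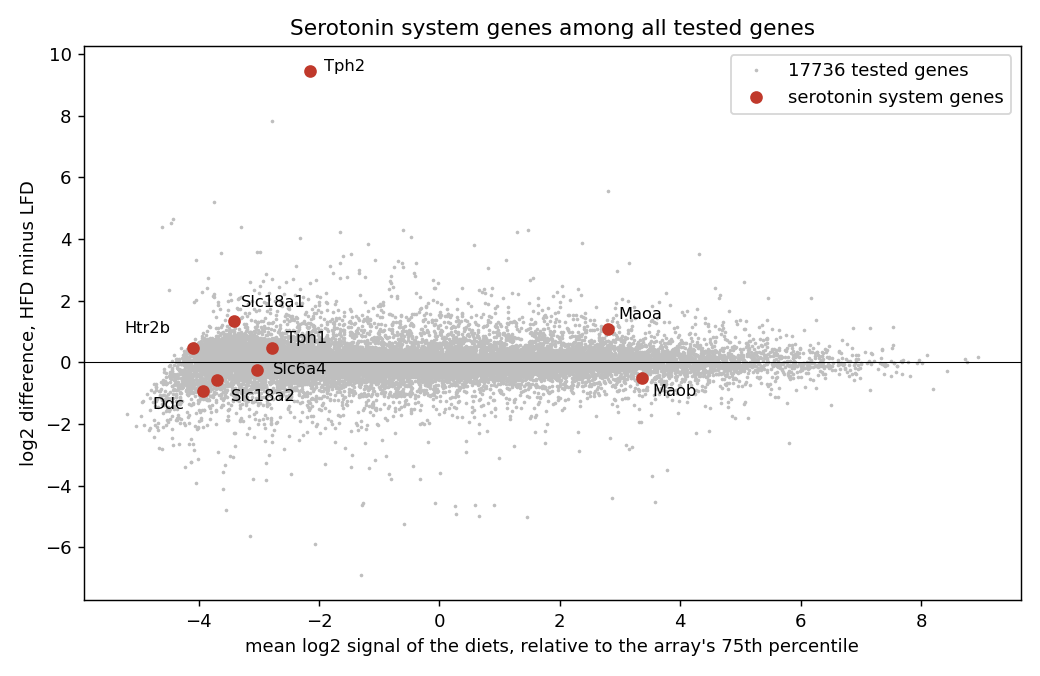
Log2 difference between HFD and LFD (vertical axis) against the mean log2 signal (horizontal axis) of 17736 tested genes in grey, with the 9 tested serotonin system genes in red, each a mean of 2 arrays per diet. Tph2 lies at 9.44 at the top. Slc18a1 at 1.32 and Maoa at 1.07 rank 389 and 622 of 17736 from the top, and the other red points lie lower.

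The genes around the pathway were not members, and they were tested in the same fit. The median log2 difference of all tested genes was 0.02. Of all tested genes, 5.75% passed as higher and 5.61% as lower, and each list count below stands beside these shares. In 9 lists, 13 genes passed. Among these, Slc5a7 passed the filter only through HFD and was not detected in LFD, so its call supports nothing. Most of the 13 calls were lost with 1 array fewer. All 13 kept their direction. The log2 difference of Slc7a8, for example, was 0.77 with all arrays and lay between 0.68 and 0.87 with 1 left out, where it no longer passed. Calls over all genes fell as well, to between 9 and 471 higher. Of the 12 other serotonin receptors, 4 were tested and none passed in either direction (median 0.33). Htr6 had a log2 difference of 0.42 (SE 0.25, limma adjusted p = 0.301), Htr1b 0.34, Htr1d 0.31 and Htr5a -0.77. Htr1b, Htr1d and Htr5a were not detected on HFD replicate 2 and passed the filter only through LFD. With normexp they had 0.29, 0.28 and -0.26. The other 8 were below the filter, and 7 of these were not detected on any array, among them Htr3a, a channel receptor known from adipocytes. Their summed signal, in multiples of the 75th percentile over the 12 genes, was 0.743 and 0.554 in HFD, against 0.511 and 0.653 in LFD. None of the 4 tested receptors was thus shown to change with the diet.

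The cofactor genes were all measured, with 2 of 8 higher and 1 lower (median 0.10). Gch1, the rate-limiting enzyme of tetrahydrobiopterin synthesis, stood at -2.19 and -2.20 in HFD, against -3.24 and -2.98 in LFD. Its log2 difference was 0.92 (SE 0.13, limma adjusted p = 0.0305), and the call was lost with normexp (0.127, from its other probe) and with the mean of its probes (0.0576), over a range of 0.0155 to 0.224 in 14 alternatives. Pts, the next enzyme of that synthesis, fell by 0.63 (SE 0.10, limma adjusted p = 0.0362). Pcbd1, which regenerates the cofactor, rose by 1.66 (SE 0.31, limma adjusted p = 0.0481), with 2.38 and 2.39 in HFD, against 0.29 and 1.16 in LFD. Qdpr (-0.10), Spr (0.13), Pcbd2 (0.08) and Gchfr (-0.08) did not pass.

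Carriers that bring tryptophan into cells were higher in 3 of 4 tested genes, against 5.75% of all tested genes, and none was lower (median 0.71). Slc7a8 rose by 0.77 (SE 0.11, limma adjusted p = 0.0325), the aromatic amino acid carrier Slc16a10 by 0.96 (SE 0.14, limma adjusted p = 0.0332) and Slc7a5 by 0.65 (SE 0.11, limma adjusted p = 0.0434). Slc3a2, the heavy chain that pairs with Slc7a5 and Slc7a8, had 0.38 (SE 0.14, limma adjusted p = 0.143), and Slc6a19 was not detected. The call for Slc16a10 was lost with the mean of its probes (log2 difference 0.36, adjusted p = 0.299, range 0.00781 to 0.299 in 14 alternatives). That for Slc7a5 was lost with quantile normalisation (0.0632) and median scaling (0.0737), in a range of 0.0242 to 0.205. These carriers also move other large amino acids.

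The main competing route for tryptophan leads to kynurenine, and its entry enzymes gave no call. Ido1 stood at -2.93 and -2.79 in HFD, against -2.75 and -2.90 in LFD, a log2 difference of -0.03 (SE 0.11, limma adjusted p = 0.848). Tdo2 and Ido2 were below the filter. Of the 7 genes tested, 1 was lower and none higher (median -0.05). It was the aminotransferase Ccbl2 (Kyat3 in current naming), which fell by 0.75 (SE 0.11, limma adjusted p = 0.0335), while Ccbl1 had -0.07, Afmid 0.50 and Qprt -0.05.

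Among low-affinity carriers and the aldehyde enzymes that follow monoamine oxidase, 1 of 8 genes was lower and none higher (median 0.27): Aldh2, which oxidises the aldehyde to 5-hydroxyindoleacetic acid, fell by 0.91 (SE 0.14, limma adjusted p = 0.0373). Slc22a2, an organic cation carrier, stood at -1.72 and -1.71 in HFD, against -4.66 and -3.25 in LFD. It did not pass (log2 difference 2.24, SE 0.49, limma adjusted p = 0.0631), but was past the threshold as higher with normexp (log2 difference 1.29). Slc22a2 was not detected on LFD replicate 1 and passed the filter only through HFD, so its call with normexp supports nothing. Aldh1a1 (-0.08), Akr1b3 (0.23) and Akr1a1 (0.30) did not pass either. Neither tested gene of the melatonin branch, Aanat (0.29) and Mtnr1b (0.43), was past the threshold (median 0.36).

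Catecholamine genes, which share Ddc, the vesicle transporters and the oxidases with serotonin, had 1 of 4 tested genes higher and 1 lower (median 0.09). Slc6a2, the noradrenaline transporter of sympathetic nerves, stood at -3.62 and -3.77 in HFD, against -1.50 and -2.32 in LFD. It fell by 1.79 (SE 0.30, limma adjusted p = 0.0408, log2 difference -0.80 with normexp). Slc6a2 was not detected on HFD replicate 2 and passed the filter only through LFD. The size of its fall therefore rests partly on an HFD value near the floor. Dbh, which makes noradrenaline from dopamine, rose by 0.87 (SE 0.14, limma adjusted p = 0.0382), a call lost with normexp (0.0556, range 0.0206 to 0.177 in 14 alternatives). Tyrosine hydroxylase (Th) was below the filter.

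**Figure D4:**
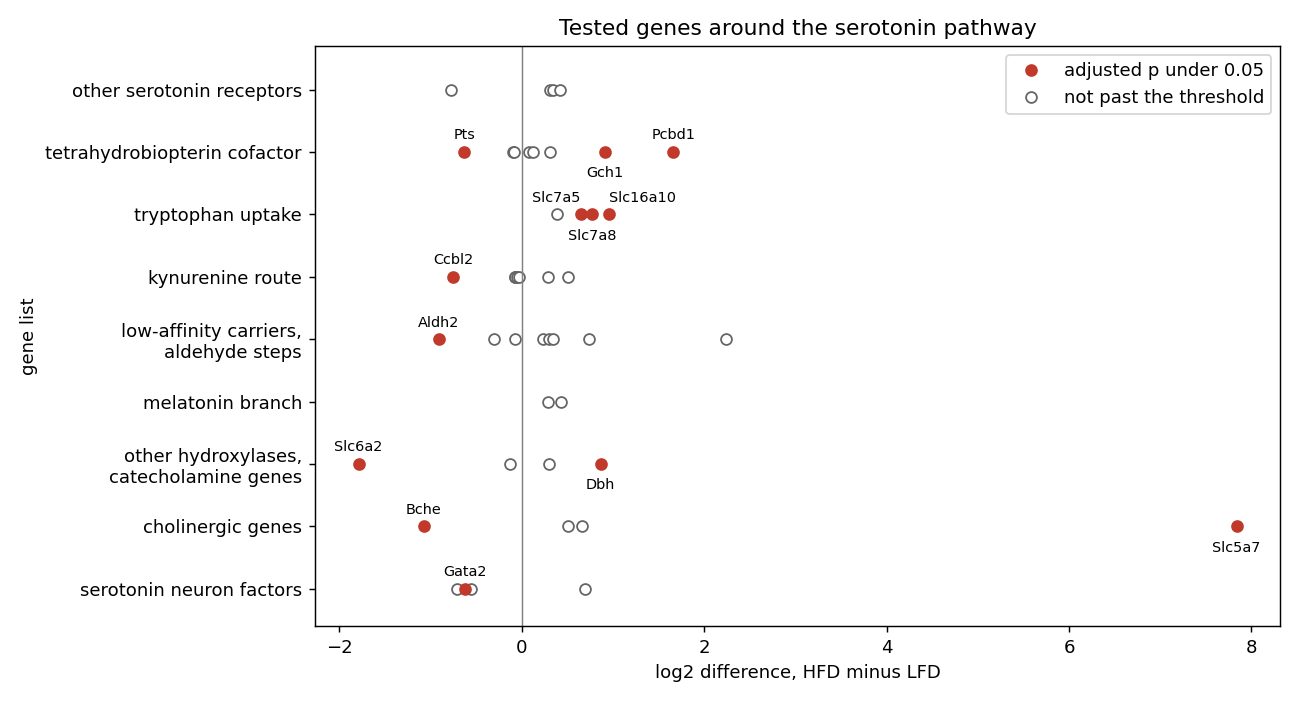
Log2 difference between HFD and LFD (horizontal axis) of tested genes in 9 lists around the serotonin pathway (vertical axis), each point 1 gene, means of 2 arrays per diet. Filled red points passed limma at an adjusted p of 0.05 and open points did not; Slc5a7 lies at 7.84, while the other passing genes lie between -1.79 and 1.66.

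Genes of the cells that make or store serotonin were set beside the Tph2 result. Of 8 transcription factors of serotonin neurons, 4 were tested, none was higher and 1 was lower (median -0.59). Gata2 fell by 0.62 (SE 0.11, limma adjusted p = 0.0432), but it is also a mast cell factor. Fev, the factor most specific to serotonin neurons, stood at -2.73 and -3.06 in HFD, against -2.20 and -2.17 in LFD (log2 difference -0.71, SE 0.15, limma adjusted p = 0.0568). It was not detected on HFD replicate 2, passed the filter only through LFD and had -0.35 with normexp. A call of Fev as lower therefore supports nothing. Gata3 had -0.55 and Lmx1b 0.70. With median scaling and with limma's trend and robust options 3 genes were lower (Gata2, Gata3 and Fev), with detection on all 4 arrays 2 were (Gata2 and Gata3), and with normexp Lmx1b was higher. The factors En1, Nkx2-2 and Foxa2 were not detected on any array. Of 12 general neuron markers 6 were tested, with 1 higher and 1 lower. Elavl3 stood at -2.56 and -2.61 in HFD, against -3.79 and -3.38 in LFD (limma adjusted p = 0.0408), and Uchl1 fell by 1.02 (limma adjusted p = 0.0188). Their summed signal was 2.48 and 2.72 in HFD, against 3.82 and 3.98 in LFD, and 4 of the 12, Elavl4, Nefl, Map2 and Gap43, were not detected on any array. Uchl1 carried that difference: without it, a choice made after seeing the values, the other 11 genes summed to 1.07 and 1.21 in HFD, against 0.868 and 1.02 in LFD. The part of neurons in the Tph2 result was not tested.

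Markers of mast cells, which store serotonin in mice, had 8 of 10 genes tested, none higher and 1 lower, which was Gata2 again (median -0.23). Their summed signal was 8.60 and 9.80 in HFD, against 12.3 and 10.3 in LFD. The granule protease genes Cma1 (-0.29), Cpa3 (-0.34) and Mcpt4 (-0.17) did not pass, nor did Kit (-0.73, SE 0.14, limma adjusted p = 0.0513). Platelets, which carry serotonin in blood, had 6 of 10 markers tested, 1 higher and none lower (median 0.32). That was Treml1 (log2 difference 1.01, SE 0.17, limma adjusted p = 0.0397), while Pf4 had 0.29 and Ppbp 0.08. The platelet sum was 22.6 and 24.3 in HFD, against 20.8 and 17.7 in LFD.

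Neuroendocrine markers had 4 of 11 genes tested, with 2 higher and none lower (median 0.44). Chga, the granule protein chromogranin A, rose by 1.63 (SE 0.22, limma adjusted p = 0.0299), with -1.24 and -0.67 in HFD, against -2.66 and -2.50 in LFD. Syp, a vesicle membrane protein, rose by 1.44 (SE 0.24, limma adjusted p = 0.0399). Chgb had -0.81 and Scg5 -0.57, and 5 of the 11 markers, among them Neurod1 and Insm1, were not detected on any array. The sum was 1.33 and 1.53 in HFD, against 0.606 and 0.824 in LFD, and without Chga and Syp, again a choice made after seeing the values, it was 0.416 and 0.387 in HFD, against 0.301 and 0.418 in LFD. Macrophage markers were higher in 6 of 8 genes (median 1.27), against 5.75% of all tested genes. Their sum was 259 and 272 in HFD, against 178 and 161 in LFD. The part of neuroendocrine cells and macrophages in the Tph2 result was not tested.

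The tested genes whose values followed Tph2 most closely over the 4 arrays were found by the root mean square difference of log2 values after each gene was centred on its own mean. This is a description of the pattern by which Tph2 was chosen, and its LFD values are surrogates. The nearest was Slc5a7, the choline transporter of cholinergic neurons, at a distance of 0.80. Its processed signal was 2228 and 1456 in HFD, against 7.72 and 8.50 in LFD, where it was not detected, so the distance also rests on surrogates on its side. Measured against the lowest detected signals it was at least 52.5-fold higher in HFD, and with normexp its log2 difference was 4.45. Slc5a7 passed the filter only through HFD. Its limma adjusted p of 0.00985 was set against LFD values that were not detected, so that p supports nothing. The next were Ubd, a ubiquitin-like protein, at 2.00, Il13ra2, a receptor of interleukin 13, at 2.12, the calcium-binding protein Pvalb at 2.40 and the chemokine Cxcl1 at 2.47. Il13ra2, Pvalb and Cxcl1 were likewise detected on the HFD arrays only, so their distances are approximate. HFD replicate 1 exceeded HFD replicate 2 for Tph2, Slc5a7, Ubd, Pvalb and Cxcl1, and was slightly below it for Il13ra2. Of the other cholinergic genes, Chat, which makes acetylcholine, had 0.66 (SE 0.31, limma adjusted p = 0.212), Ache 0.50 and the vesicle carrier Slc18a3 was below the filter. Bche, a cholinesterase, fell by 1.07 (SE 0.11, limma adjusted p = 0.0208). In that list 1 of 4 tested genes was thus higher, Slc5a7, and 1 lower (median 0.58).

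**Figure D5:**
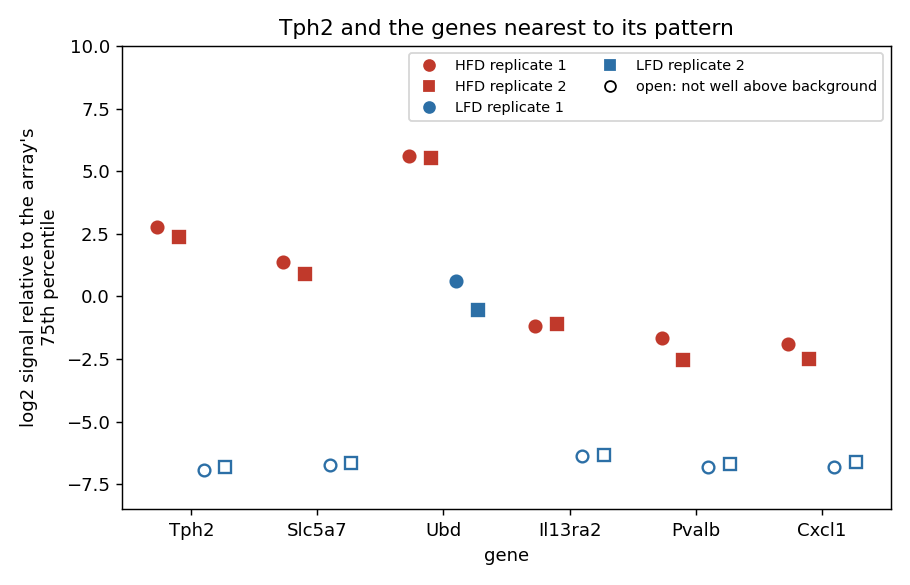
Log2 signal over the 75th percentile of its array (vertical axis) of Tph2 and the 5 genes nearest to its pattern (horizontal axis) on each array, HFD in red and LFD in blue, circles for replicate 1 and squares for replicate 2; open symbols were not well above background. Slc5a7 has 1.38 and 0.90 in HFD, against -6.75 and -6.65 in LFD, while Ubd was detected in both diets.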

How the data were processed

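The 4 arrays, 2 HFD and 2 LFD, on 1 slide and in 1 scan, were analysed. The intensity values are scanner output that the authors deposited: background-subtracted, detrended within arrays and not scaled between them, per the file headers. The headers name Feature Extraction 11.0.1.1 and the submitters' processing notes 11.5.1.1. Each sample used 500 ng of RNA, per the labels. The deposited value table is a linear, uncentred ratio of processed signal to a constant per array close to its 75th percentile, as division of the scanner signals showed; the medians are 0.130 and 0.131 for HFD, and 0.117 and 0.127 for LFD.

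Spots of a probe were averaged, without the 60 to 115 flagged as outliers per array. No spot was saturated. Signals were divided by the 75th percentile of their array, taken to log2 and fitted with lmFit and eBayes of limma 3.58.1 in R 4.3.3 (two-sided) over 26054 probes detected on both arrays of at least 1 diet, with Benjamini-Hochberg adjustment and a threshold of 0.05. A gene was its tested probe of highest mean signal. Residual degrees of freedom were 2 and the prior 2.24; the procedure was tested on simulated data. Names were updated by accession in a RefSeq table of another build (27668 probes matched). P-values measure only the spread between these samples.

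Members and gene lists were chosen with earlier results of these data known. Of each list, genes past the threshold and up to 4 others of high signal were named; the 5 genes nearest to Tph2 were named by distance, passing over uncharacterised transcripts. Other named genes of the lists, such as those below detection, were chosen after their values were seen. Some genes of the lists are not reported here by name. Alternatives covered background, scaling, filters, flagged spots, probe means, variance model, replicate block and each array left out.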

Additional observations from a re-analysis of the deposited data

How the results depend on the processing

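Tph2 was chosen by its difference, so its direction in the alternatives supports nothing, and its size rests on LFD surrogates: the log2 difference was 5.79 with normexp, 9.01 with quantile normalisation and 9.25 to 9.63 with 1 array left out; a filter on detection on all 4 arrays removed it. The other members kept their sign in each alternative run, but Ddc (-0.12), Slc18a2 (-0.02) and Slc6a4 (-0.02) were close to 0 with normexp, and Slc18a1 was 0.75. Signals near background limit what can be said of Ddc, Slc6a4, Slc18a2, Htr2a and Htr2b.

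The calls over all genes depended on the setting: 1019 higher and 995 lower became 1597 higher with normexp, 1599 higher with detection on all 4 arrays, 1826 and 1808 with trend and robust options, and 0 and 0 without a filter on dim probes (limma; 5612 at an unadjusted p under 0.05). With the replicate block they were 220 and 207, and Tph2 was the only member called. No shift shared by replicate number was seen, as HFD 1 minus HFD 2 correlated with LFD 1 minus LFD 2 at r = -0.0046 over probes. Whether the samples were paired in handling is not given, and this correlation cannot tell. Leaving out 1 array gave 9 to 471 higher and 9 to 338 lower: 18 and 24 without HFD replicate 1, 9 and 9 without HFD replicate 2, 427 and 264 without LFD replicate 1, and 471 and 338 without LFD replicate 2. Median scaling gave 820 higher and 1314 lower, 38.4% higher against 50.6% in the main setting. Of 13 calls among pathway genes, 11 to 13 held with normexp, quantile, median scaling, the deposited table, kept flagged spots, probe means and trend options. With detection on all 4 arrays 11 held and 2 (Slc6a2 and Slc5a7) were not tested. None held without the filter, and only Slc5a7 held with the block. Slc5a7 was not detected in LFD and passed the filter only through HFD, so that its call held supports nothing. Most of the 13 calls were lost each time 1 array was left out.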
